A study of Rattus norvegicus with 24 samples.

Results

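The polyol pathway and the enzymes and receptor of glycation defense were examined in the rat retina after streptozotocin (STZ) through the 7 genes Akr1b1, Sord, Glo1, Hagh, Ager, Gfpt1 and Akr1a1. All probes whose RefSeq accession in the array design mapped to one of these symbols were taken. This gave 4 genes, Sord, Hagh, Ager and Akr1a1, of 4012 that could be named on the array, with 1 probe each among 33911, and Akr1b1, Glo1 and Gfpt1 were not analysed here. All 4 probes passed the filter on dim probes.

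Retinas came from male Sprague Dawley rats injected with STZ, a toxin of the pancreatic beta cells that leaves the animal short of insulin, or with citrate vehicle as age-matched controls. STZ and control retinas were taken 1 month and 3 months after the injection, with 6 arrays in each of the 4 groups, 24 in all. The labels do not tie arrays to rats, and the study lists fewer rats than there are arrays for the 1 month controls, so arrays of that group may share a rat and every p-value below measures the spread between arrays. Diabetic rats received no insulin, and only animals whose blood glucose exceeded a set level soon after the injection entered the STZ groups. RNA was taken from the whole retina, so fewer cells of a type and less RNA per cell cannot be told apart. Each value is the background-subtracted brightness of a spot, an intensity on a CodeLink rat whole genome array, which is read in 1 color. It was divided by the median of the rat probes of its array, so that a scaled intensity of 1 is the brightness of the median rat probe. Differences are given on the log2 scale, and the level of one probe is not comparable with that of another.

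When glucose is high, aldose reductase (Akr1b1) turns part of it into sorbitol, and sorbitol dehydrogenase (Sord) oxidizes sorbitol to fructose. Sugars and their triose phosphates also give rise to methylglyoxal, a reactive dicarbonyl that modifies proteins into advanced glycation end products (AGEs). Methylglyoxal is removed by glyoxalase 1 (Glo1) and glyoxalase 2 (Hagh) in a route that uses glutathione, while aldehyde reductase (Akr1a1) reduces reactive aldehydes with NADPH. AGEs and several S100 proteins bind the receptor RAGE (Ager), and Gfpt1 opens the hexosamine pathway, another outlet for glucose. All of these routes are studied in the diabetic retina and lens.

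The promoters of the 4 genes are shown because the genes are compared below as members of 1 system, and the windows let their control regions be compared. Each window runs from 250 bases before to 50 bases after the transcription start in RefSeq (rat assembly GRCr8), 5′ to 3′ on the strand of the gene. Capitals mark a GC box, GGGCGG, or a CCAAT box, CCAAT, on either strand.
Sord, chr3:129638418-129638717, plus strand: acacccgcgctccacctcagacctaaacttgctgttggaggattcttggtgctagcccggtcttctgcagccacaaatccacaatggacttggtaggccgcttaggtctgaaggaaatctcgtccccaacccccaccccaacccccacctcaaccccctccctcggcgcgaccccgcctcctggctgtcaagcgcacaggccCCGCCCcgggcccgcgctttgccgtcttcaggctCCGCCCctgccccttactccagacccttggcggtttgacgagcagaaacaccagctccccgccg
Hagh, chr10:14379503-14379802, plus strand: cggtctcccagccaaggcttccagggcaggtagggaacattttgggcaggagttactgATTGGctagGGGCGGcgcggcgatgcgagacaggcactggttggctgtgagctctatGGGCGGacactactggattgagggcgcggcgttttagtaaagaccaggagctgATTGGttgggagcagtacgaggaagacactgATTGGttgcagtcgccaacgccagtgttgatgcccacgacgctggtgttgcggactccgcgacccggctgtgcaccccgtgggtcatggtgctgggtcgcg
Ager, chr20:4155636-4155935, minus strand: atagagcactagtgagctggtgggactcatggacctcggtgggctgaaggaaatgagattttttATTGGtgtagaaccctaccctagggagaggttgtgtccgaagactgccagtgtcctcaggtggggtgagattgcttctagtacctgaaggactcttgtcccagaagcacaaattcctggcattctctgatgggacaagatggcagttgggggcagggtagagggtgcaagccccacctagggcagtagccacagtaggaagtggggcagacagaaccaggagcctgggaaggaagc
Akr1a1, chr5:135346182-135346481, minus strand: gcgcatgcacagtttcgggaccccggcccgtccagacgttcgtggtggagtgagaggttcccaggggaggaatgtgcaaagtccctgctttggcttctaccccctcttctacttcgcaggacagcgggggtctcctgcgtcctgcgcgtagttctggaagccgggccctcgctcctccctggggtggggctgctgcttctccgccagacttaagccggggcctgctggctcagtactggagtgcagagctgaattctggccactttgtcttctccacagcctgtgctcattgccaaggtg
The Sord window held 2 GC boxes, at -48 and -14 from the start. The Hagh window held 2 GC boxes and 3 CCAAT boxes, the Ager window held 1 CCAAT box, and the Akr1a1 window held neither. Of 33469 rat promoters of this length, 33.1% had a GC box and 37.5% a CCAAT box, and 3.02% had at least 3 CCAAT boxes. No window held a TATA box (TATAAA, in 14.2% of promoters), an antioxidant response element core (TGACNNNGC, 12.1%), a hypoxia response element core (ACGTG, 19.3%) or a tonicity element core (TGGAAA, 22.7%) on either strand. None of the 6 motifs was in all 4 windows, and the G and C content ran from 54.3% in Ager to 64.7% in Sord.

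The arrays of the 3 month groups differed as a whole, and this touches every 3 month value below. Before scaling, the median intensity lay between 125 and 164 on the 3 month STZ arrays and between 149 and 308 on the 3 month control arrays. The spread of an array, the interquartile range of log2 intensity over its rat probes, was 1.48 to 2.23 in the 3 month controls, 2.07 to 2.70 in the 3 month STZ group and 3.36 to 3.67 at 1 month. Of 22025 tested probes, 50.5% were called higher and 3.55% lower with diabetes at 3 months (limma, adjusted p under 0.05 and at least 1.2-fold), and the median difference was 0.44 on the log2 scale. At 1 month 0.00908% were called (927 probes at an unadjusted p under 0.05) and the median was 0.013. The retinal markers Sag and Cnga1 (rods), Opn1sw (cones) and Glul, Slc1a3 and Kcnj10 (Müller glia) passed the filter on dim probes, a median scaled intensity above 0.554. So did the neuronal markers Nefl, Nefm, Sncg, Grm6 and Gad1 and the microglial markers Itgam and Aif1. Aqp4 (Müller glia), Thy1 (ganglion cells), Gad2 (amacrine cells) and Ptprc and Cx3cr1 (the other microglial markers with a probe) did not pass it. The filter is a percentile of brightness, and whether a probe was detected was not tested.

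At 3 months, transcripts of aldehyde reductase and glyoxalase 2 rose in diabetic retinas, a direction that turned for both after quantile normalization, while sorbitol dehydrogenase and RAGE did not pass the test. Akr1a1 was 1.60-fold higher and Hagh 1.31-fold higher. Thus 2 of the 4 members were called, against 50.5% of all tested probes called higher, and the median of the members (0.44) was that of all tested probes (0.44). At 1 month limma called 0 of the 4, and 1 of them, Hagh, had an unadjusted p under 0.05. For 0 of the 4 did the groups separate completely, against 10.2% of all tested probes at 3 months and 0.545% at 1 month.

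**Figure D1:**
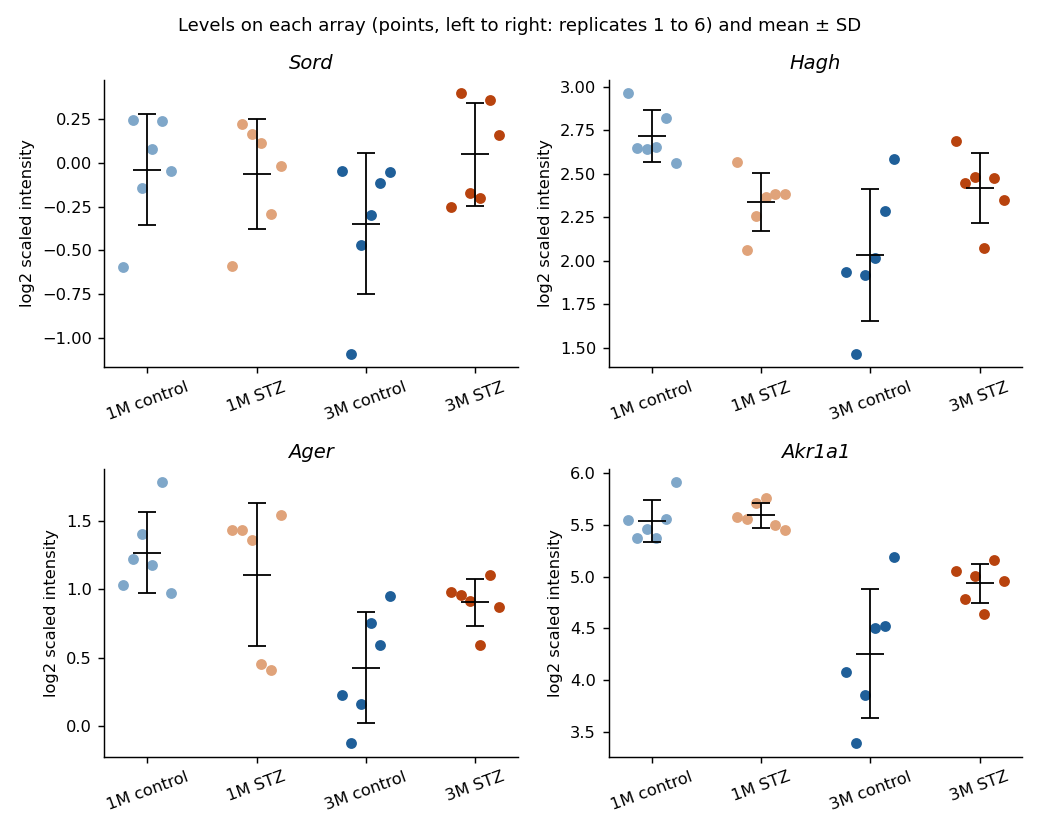
Level of Sord, Hagh, Ager and Akr1a1 on each of the 24 arrays (points, log2 of the scaled intensity on the vertical axis, a scale of its own in each panel) with the mean and SD of each group of 6. The 3 month control arrays are the most scattered for Hagh and Akr1a1, and Akr1a1 is lower in both 3 month groups than in both 1 month groups.

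Sord, the enzyme of the second step of the polyol pathway, had the dimmest spot of the 4 relative to the filter limit, a scaled intensity of 0.554. In 1 month control retinas its scaled intensity ran from 0.661 to 1.19 (median 1.01), and in 1 month STZ retinas from 0.666 to 1.17 (median 1.04). In 3 month control retinas it ran from 0.469 to 0.967 (median 0.868), and in 3 month STZ retinas from 0.840 to 1.32 (median 1.00). The 1 month groups covered the same range. At 3 months the STZ arrays 2, 5 and 6 lay above every control and the controls 2, 3 and 4 below every STZ array, with the rest mixed, and control 2 was the single array under the limit.

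The log2 fold change of Sord was 0.40 at 3 months (standard error 0.19, 95% interval 0.0084 to 0.79, adjusted p = 0.0761 from limma) and -0.027 at 1 month (standard error 0.19, adjusted p = 1.00 from limma). The 3 month value was at the 45.2 percentile of all tested probes and 0.048 below their median. After quantile normalization over all arrays Sord was 0.58 higher in 3 month STZ retinas and was called (adjusted p = 0.0362 from limma). Subtracting each array's 5th percentile also gave a call (0.61), as did leaving out 3 month control 6 (0.46). Without 3 month control 2 the difference was 0.25 (adjusted p = 0.243 from limma), and it was 0.026 when the arrays were scaled to the median of the tested probes. Mean log2 levels ran from 0.051 ± 0.30 in 3 month STZ through -0.037 ± 0.31 in 1 month control and -0.063 ± 0.32 in 1 month STZ to -0.35 ± 0.40 in 3 month control retinas (SD, 6 arrays each), and no neighbours in this order passed the test (adjusted p from 0.184 to 1.00 from limma).

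Akr1a1 reduces aldehydes, among them glucuronate, and is a close relative of aldose reductase. In 1 month control retinas its scaled intensity was 46.8, 41.3, 44.1, 41.4, 47.0 and 60.2 on arrays 1 to 6, and in 1 month STZ retinas it ran from 43.7 to 54.3 (median 47.3). In 3 month control retinas it was 16.9, 10.5, 14.5, 22.7, 23.0 and 36.4 on arrays 1 to 6. In 3 month STZ retinas it ran from 25.0 to 35.7 (median 31.6). At 3 months, 5 controls lay below every STZ array and control 6 lay above all of them, whereas at 1 month the groups overlapped.

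The log2 fold change of Akr1a1 was 0.68 at 3 months (standard error 0.19, 95% interval 0.28 to 1.08, adjusted p = 0.00659 from limma), at the 77.2 percentile of all tested probes and 0.23 above their median. At 1 month it was 0.056 (standard error 0.19, adjusted p = 1.00 from limma). Control 6, the highest Akr1a1 array of 3 months, was also the 3 month control with the widest spread (2.23), and control 2, the lowest, had a median correlation of 0.802 with the other 3 month controls, the lowest of the 24 arrays. Without control 6 the difference was 0.86, without control 2 it was 0.50, and the call stood with any single array left out. The 3 month difference turned to -0.075 after quantile normalization and -0.077 with quantile normalization within each time point. It was 0.31 (adjusted p = 0.123 from limma) with the arrays scaled to the median of the tested probes and 0.12 with array spread as a covariate.

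Akr1a1 also differed between the time points, in control and in diabetic retinas. Its mean log2 level was 5.54 ± 0.20 in 1 month control and 5.59 ± 0.12 in 1 month STZ retinas, and 4.26 ± 0.62 in 3 month control and 4.93 ± 0.19 in 3 month STZ retinas (SD, 6 arrays each), so that every 3 month array lay below every 1 month array, as for 13.5% of all tested probes. The 3 month controls were 2.43-fold below the 1 month controls (log2 difference -1.28, standard error 0.19, adjusted p = 2.42e-06 from limma), where 55.6% of all tested probes were called lower with a median of -0.52. The 3 month STZ retinas were 1.58-fold below the 1 month STZ retinas (-0.66, standard error 0.19, adjusted p = 0.00727 from limma), where 25.6% were called lower with a median of -0.075. In the order of the 4 groups, the 1 month groups were not separated by the test, while 1 month control against 3 month STZ (adjusted p = 0.0135 from limma, 25.6% of all tested probes called lower) and 3 month STZ against 3 month control were.

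The fall of Akr1a1 between the time points was called under each of the 3 scalings for which it was computed. Among controls it was -0.66 after quantile normalization (adjusted p = 2.23e-05 from limma, 39.0% of all tested probes called lower) and -0.75 with arrays scaled to the median of the tested probes (adjusted p = 0.000113 from limma, 28.0% called lower). Among STZ retinas it was -0.67 (adjusted p = 4.72e-05 from limma, 23.2% called lower) and -0.50 (adjusted p = 0.00624 from limma, 21.2% called lower). The age of the rats and the processing of the arrays of each time point cannot be told apart here.

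Hagh, glyoxalase 2, hydrolyses the glutathione thioester that glyoxalase 1 makes from methylglyoxal, and its difference between STZ and control retinas had opposite signs at 1 and 3 months. At 1 month its scaled intensity was 7.81, 6.26, 6.26, 6.31, 7.06 and 5.91 on control arrays 1 to 6 and 5.94, 4.19, 4.77, 5.17, 5.23 and 5.22 on STZ arrays 1 to 6. At 3 months it was 3.83, 2.76, 3.77, 4.04, 4.87 and 6.01 on control arrays 1 to 6 and 6.44, 5.45, 5.60, 4.21, 5.56 and 5.11 on STZ arrays 1 to 6. At 1 month 5 of the 6 STZ arrays lay below every control, and only STZ array 1 passed the lowest control. At 3 months all 6 STZ arrays lay above the control median, 1 of them above every control, and 4 controls lay below every STZ array.

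The log2 fold change of Hagh was 0.39 at 3 months (standard error 0.15, 95% interval 0.074 to 0.70, adjusted p = 0.0347 from limma), at the 44.1 percentile of all tested probes and 0.059 below their median. At 1 month it was -0.38 (standard error 0.15, 95% interval -0.69 to -0.066), at the 3.31 percentile, and it did not pass after adjustment (adjusted p = 1.00 from limma). The 1 month value lay between -0.42 and -0.32 under every alternative tried, and the 3 month value did not keep its sign. It was -0.14 after quantile normalization, 0.015 with arrays scaled to the median of the tested probes and -0.018 with array spread as a covariate. The 3 month call was also lost without control 1, 2 or 3 or STZ array 1, 2, 3 or 5, and the value without control 2 was 0.27.

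The effect of diabetes on Hagh was more positive at 3 months than at 1 month by a log2 difference of 0.76 (standard error 0.21, adjusted p = 0.0290 from limma), a difference called higher for 14.8% of all tested probes, whose median was 0.44. Hagh was the 1 member called. The same difference was 0.64 for Ager (adjusted p = 0.104 from limma), 0.62 for Akr1a1 (adjusted p = 0.0955 from limma) and 0.42 for Sord (adjusted p = 0.220 from limma). For Hagh it was lost without 3 month control 3, STZ array 5 or STZ array 6 (0.65 to 0.87 over all arrays left out in turn), and without 3 month control 6 those of Ager (0.74) and Akr1a1 (0.81) were called too. For Hagh the call was also lost after quantile normalization over all arrays or within time points (0.24 under both), with arrays scaled to the median of the tested probes (0.39), after subtraction of each array's 5th percentile (0.73) and with array spread as a covariate (0.35). Mean log2 levels of Hagh ran from 2.72 ± 0.15 in 1 month control through 2.42 ± 0.20 in 3 month STZ and 2.34 ± 0.17 in 1 month STZ to 2.03 ± 0.38 in 3 month control retinas (SD, 6 arrays each), and no neighbours in this order passed the test (adjusted p = 0.116, 0.690 and 0.0760 from limma). The ends of the order did, with 3 month controls 1.60-fold below 1 month controls (-0.68, adjusted p = 0.000301 from limma), a difference that was -0.056 after quantile normalization. Before quantile normalization it was at the 40.7 percentile of all tested probes, of which 55.6% were called lower with a median of -0.52.

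**Figure D2:**
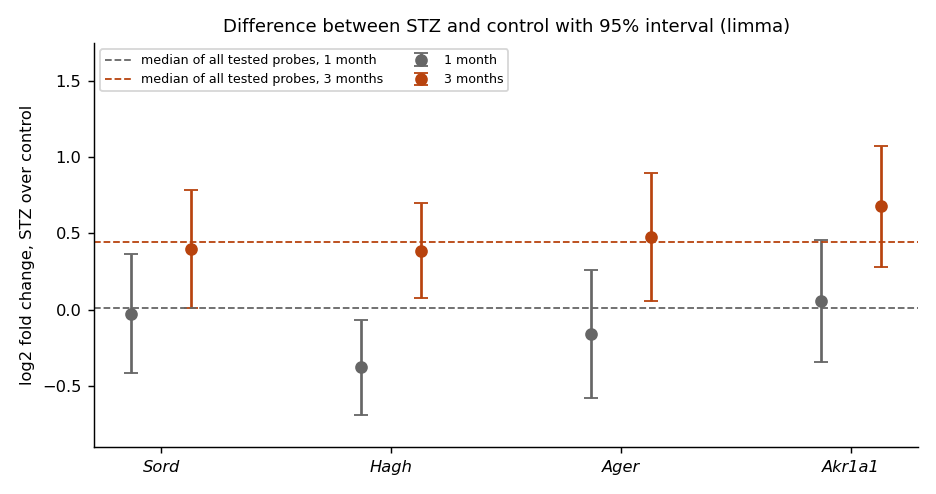
Log2 fold change of STZ over control retinas for the 4 genes at 1 month (grey) and 3 months (orange), with the 95% interval from limma; dashed lines give the median of all 22025 tested probes. The 3 month intervals of all 4 genes include the 3 month median of 0.44, and the 1 month interval of Hagh is the single one below 0.

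Ager encodes RAGE, the cell surface receptor for AGEs and S100 proteins. Its scaled intensity ran from 1.96 to 3.44 (median 2.30) in 1 month control retinas, and in 1 month STZ retinas it was 2.70, 2.70, 2.57, 1.37, 1.33 and 2.91 on arrays 1 to 6. It ran from 0.918 to 1.94 (median 1.34) in 3 month control and from 1.51 to 2.16 (median 1.92) in 3 month STZ retinas. At 1 month STZ arrays 4 and 5 lay below every control and the other STZ arrays lay among the controls. At 3 months all 6 STZ arrays were above the control median, and 3 of them were above every control.

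The log2 fold change of Ager was 0.48 at 3 months (standard error 0.21, 95% interval 0.054 to 0.90, adjusted p = 0.0522 from limma), at the 53.6 percentile of all tested probes and 0.031 above their median. At 1 month it was -0.16 (standard error 0.21, adjusted p = 1.00 from limma). Ager was called at 3 months without control 4 (0.54), control 6 (0.58) or STZ array 4 (0.54) of 3 months, and also without 1 month control 5, STZ array 4 or STZ array 5, which leave its value at 0.48. It was called with array weights (0.44), and it was -0.046 with array spread as a covariate and 0.11 with arrays scaled to the median of the tested probes. Mean log2 levels ran from 1.27 ± 0.30 in 1 month control through 1.11 ± 0.52 in 1 month STZ and 0.91 ± 0.17 in 3 month STZ to 0.43 ± 0.41 in 3 month control retinas (SD, 6 arrays each), and no neighbours in this order passed the test. The 3 month controls were 1.79-fold below the 1 month controls (-0.84, adjusted p = 0.000825 from limma), where 55.6% of all tested probes were called lower with a median of -0.52. Ager was at the 31.5 percentile of all tested probes in this difference. The difference was -0.54 after quantile normalization (adjusted p = 0.0303 from limma, 39.0% of all tested probes called lower). It was -0.31 with arrays scaled to the median of the tested probes (adjusted p = 0.147 from limma, 28.0% called lower).

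**Figure D3:**
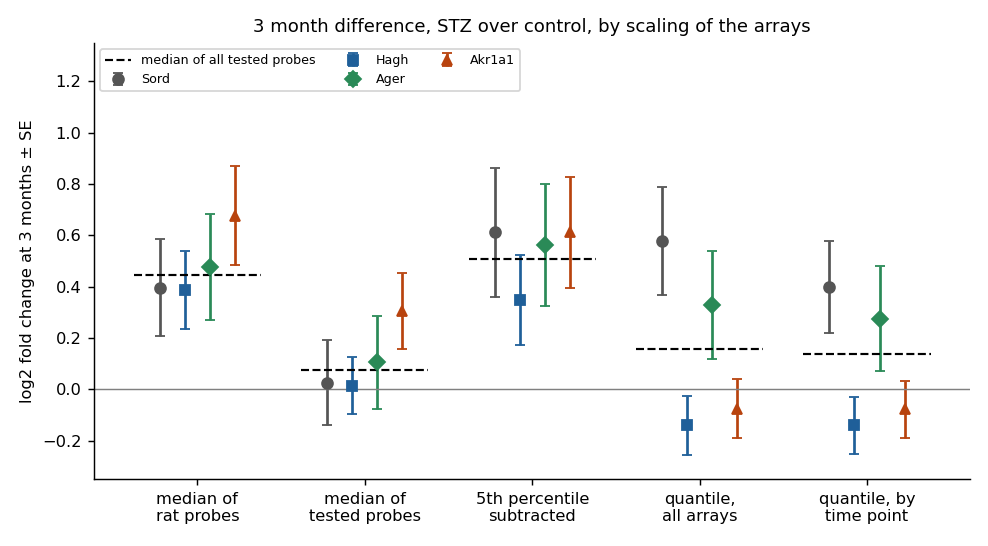
Log2 fold change of STZ over control at 3 months for the 4 genes (points, with the standard error) under 5 ways of scaling the arrays; dashed lines give the median of all tested probes under each. Akr1a1 and Hagh lie at or above 0 in the first 3 settings and below 0 after quantile normalization, and Sord and Ager stay above 0 in all 5.

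The levels of the members ran more closely together over the 3 month arrays than over the 1 month arrays. After each group's mean was subtracted, the correlation over the 12 arrays of 3 months was 0.954 between Ager and Akr1a1, 0.917 between Hagh and Akr1a1 and 0.881 between Hagh and Ager, and from 0.602 to 0.663 between Sord and the others. Over the 12 arrays of 1 month the 6 correlations ran from -0.705, between Sord and Hagh, to 0.209. The points share the scaling of their array, and most probes behaved alike, since the median correlation of all tested probes with a member at 3 months was 0.644 for Sord, 0.682 for Hagh, 0.726 for Ager and 0.738 for Akr1a1. The part of array spread in these correlations was not tested.

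**Figure D4:**
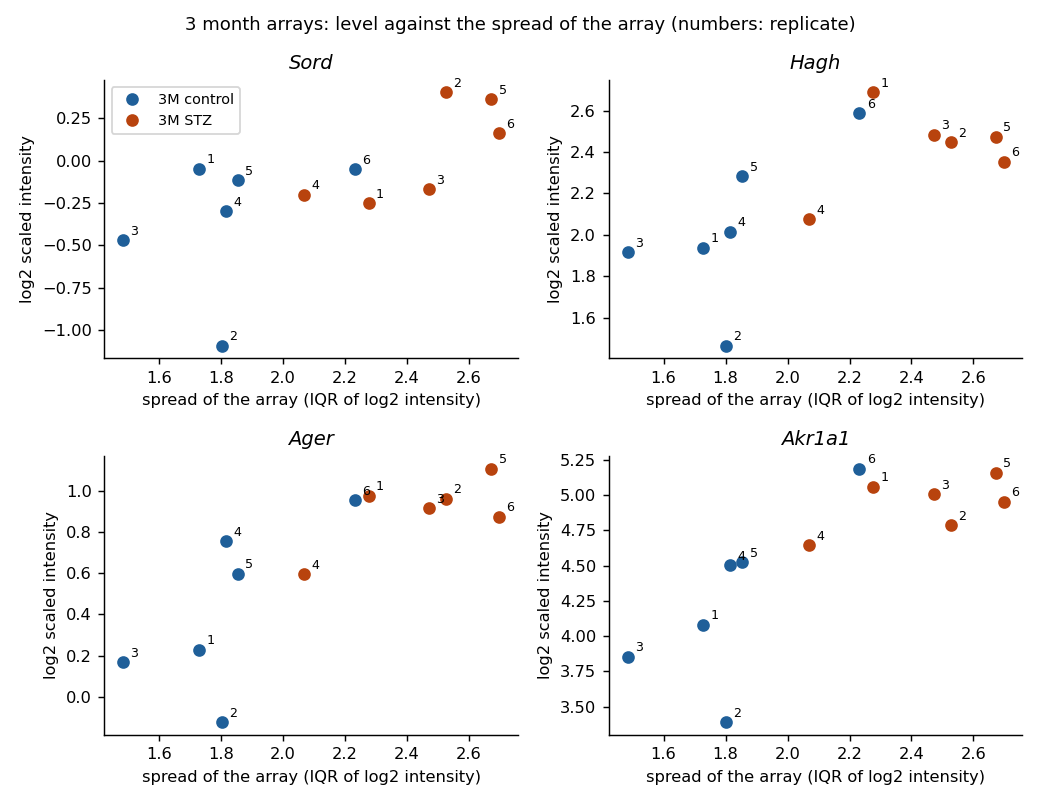
Log2 scaled intensity of the 4 genes (vertical axes) on the 12 arrays of 3 months against the spread of each array, the interquartile range of its log2 intensities (horizontal axes); numbers are replicates. The 3 month STZ arrays have spreads of 2.07 to 2.70 and the controls 1.48 to 2.23. Control 6, with the widest spread of its group, lies among the STZ arrays for Hagh and Ager and above all of them for Akr1a1.

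Over all 24 arrays, the named genes whose deviations from their group means were most like those of a member were Pdpk1 (r = 0.851) and Cav1 (0.838) for Sord, Ppm1g (0.897) and Rtn1 (0.861) for Hagh, Gsk3b (0.874) and Tank (0.863) for Ager, and Hspb6 (0.944) and Vdac2 (0.934) for Akr1a1. These values describe likeness over the arrays, and carry the shared scaling of each array.

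Other genes of the same routes were read through 8 lists of related enzymes, transporters and receptors, chosen with earlier results of these data known. At 1 month limma called 0 of their 39 tested genes, and 1 had an unadjusted p under 0.05. At 3 months no list had a gene called lower. Over the 2811 named genes 56.0% were called higher with a median log2 fold change of 0.50, which is the background for the counts that follow. For the counts after quantile normalization the background is 24.6% of all tested probes called higher. With the arrays scaled to the median of the tested probes it is 12.8%.

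Other enzymes act on reactive aldehydes beside Akr1a1. Of 7 tested genes of carbonyl and aldehyde reductases and dehydrogenases, 5 were called higher at 3 months (median 0.57). The highest were Aldh3a1 (1.02), which oxidizes aldehydes, and Dcxr (0.70), which reduces dicarbonyls and xylulose. The lowest were the aflatoxin aldehyde reductase Akr7a3 (0.34, called) and the steroid reductase Akr1d1 (0.16, adjusted p = 0.398 from limma). After quantile normalization 2 of the 7 were called, and with the arrays scaled to the median of the tested probes 0 were.

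Downstream of sorbitol dehydrogenase, fructose is phosphorylated by ketohexokinase (Khk), and the pentose phosphate pathway supplies the NADPH that aldose reductase and aldehyde reductase use. Of 5 tested genes for fructose use and NADPH supply, 4 were called higher (median 0.71), from Khk at 0.91 to malic enzyme Me1 at -0.051 (adjusted p = 0.835 from limma). Khk was 1.10 higher after quantile normalization, where it was the 1 gene of the list still called. Of 3 tested triose phosphate enzymes, 2 were called higher (median 0.59), from Aldoc at 0.66 to Aldoa at 0.38 (adjusted p = 0.125 from limma). All 3 turned negative after quantile normalization, with a median of -0.28. With the arrays scaled to the median of the tested probes all 3 stayed positive, with a median of 0.22, and 0 were called.

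Glutathione is used in the route formed by the 2 glyoxalases. Of 5 tested genes for glutathione supply and deglycation, 2 were called higher (median 0.44), with glutathione synthetase Gss highest at 1.11 (adjusted p = 6.44e-05 from limma) and the modifier subunit of glutamate cysteine ligase, Gclm, lowest at 0.33 (adjusted p = 0.226 from limma). Gss was 0.97 higher after quantile normalization and 0.74 higher with the arrays scaled to the median of the tested probes, and was called under both. The other gene called, Park7, lost its call under both (adjusted p = 0.683 and 0.0791 from limma), which left 1 of the 5.

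The list of AGE receptors and RAGE ligands held the largest differences among the 8 lists. Of 7 tested AGE receptors and RAGE ligands, 5 were called higher (median 1.02), led by Lgals3 (2.84), which encodes the AGE-binding galectin-3, and the RAGE ligand S100a4 (2.08). The lowest were Scarb1 (0.26, adjusted p = 0.298 from limma) and S100a9 (-0.49, adjusted p = 0.0848 from limma), so the tested S100 ligands did not all run the same way. After quantile normalization 5 of the 7 were called higher with a median of 0.70, when 24.6% of all tested probes were, and Lgals3 was 2.55 higher. With arrays scaled to the median of the tested probes 4 were called higher, when 12.8% of all tested probes were, and S100a9 was called lower (-0.86). Lgals3 and S100b are also made by reactive glia.

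In the hexosamine pathway, Ogt, the transferase that attaches O-GlcNAc to proteins, was the 1 gene tested (0.54, adjusted p = 0.0745 from limma). Of 5 tested genes for handling osmolytes, which cells adjust when sorbitol builds up, 2 were called higher (median 0.54), from the betaine transporter Slc6a12 at 0.78 to the inositol transporter Slc5a3 at -0.35 (adjusted p = 0.590 from limma). After quantile normalization 1 of the 5 was called higher and 1 lower, the taurine transporter Slc6a6 (-0.81, named after its value was seen), and with the arrays scaled to the median of the tested probes 0 were called. Of 6 tested genes for glucose entry and phosphorylation, 4 were called higher (median 0.46), from hexokinase Hk1 at 0.81 to the fructose transporter Slc2a5 at -0.018 (adjusted p = 0.949 from limma). After quantile normalization 2 of the 6 were called higher, and 1 was with the arrays scaled to the median of the tested probes.

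**Figure D5:**
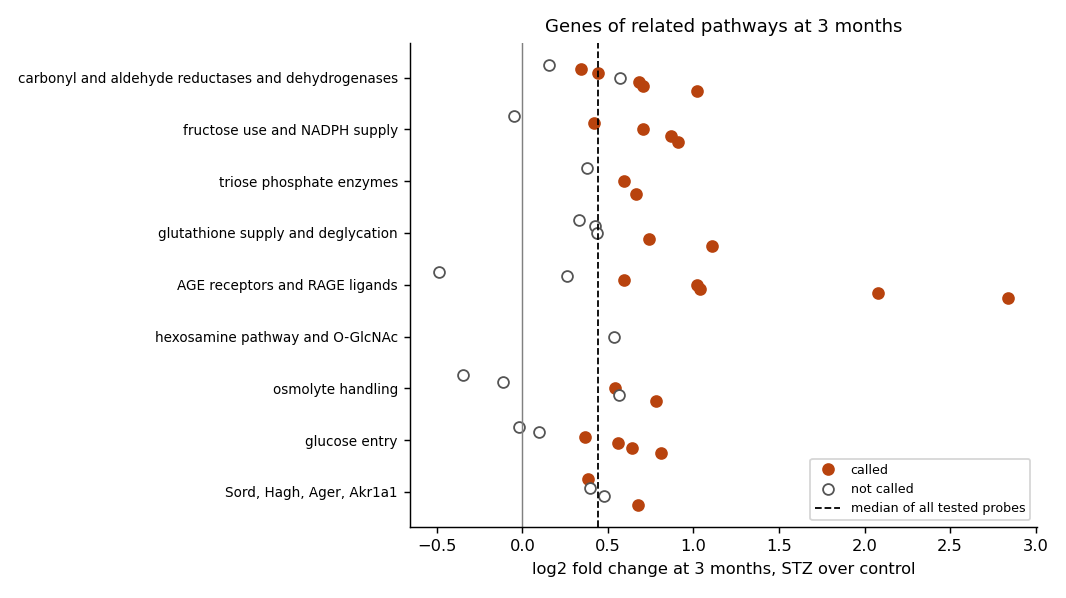
Log2 fold change of STZ over control at 3 months (horizontal axis) for each tested gene of the 8 lists and for the 4 members; filled points were called by limma and the dashed line is the median of all tested probes (0.44). Most points lie near the dashed line, and the AGE receptors and RAGE ligands reach farthest to the right, to 2.84.

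Markers of the lens and of reactive glia were mostly called higher at 3 months, and markers of other cells varied. Of 2 tested markers each, 0 for retinal pigment epithelium, 1 for erythrocytes, 1 for microglia and 2 for endothelium were called higher. Of 3 each, 1 was for rods, 1 for Müller glia and 1 for ganglion cells. For bipolar and amacrine cells 3 of 4 were called, and for cones 1 of 1. The summed pigment epithelium markers reached 97.7 in the 3 month STZ group (median 3.91). Of 9 tested lens markers 8 were called higher at 3 months. After quantile normalization 3 were, when 24.6% of all tested probes were. With the arrays scaled to the median of the tested probes 6 were, when 12.8% of all tested probes were. Their summed scaled intensity was 168 to 429 in 3 month control and 584 to 997 in 3 month STZ retinas. It was 242 to 586 in 1 month control and 57.3 to 588 in 1 month STZ retinas. All 4 reactive glia markers (Gfap, Vim, Cd44 and Timp1) were called higher, with sums of 14.9 to 38.2 in 3 month control and 58.1 to 357 in 3 month STZ retinas, and of 43.8 to 73.0 and 38.1 to 86.5 at 1 month. The part of lens and glial RNA in the values of the 4 members was not tested.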

How the data were processed

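Per the labels and the methods, biotin-labelled cRNA of each retina was hybridized to a CodeLink rat whole genome array. The authors deposited, for each array, the spot intensity after background subtraction and the same intensity after normalization within the array, both on a linear scale, and a series table whose values were the same (0 differed). On 3 arrays 1 probe had no value. Present and absent flags of the software were left out.

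The background-subtracted intensity was divided by the median of the 33849 rat probes (62 bacterial probes were left out), raised to 0.01 where lower, and put on the log2 scale. Tested were the 22025 probes whose median over the 24 arrays exceeded 0.554, the 35th percentile, and that had 4 or more values per group. The number of arrays limits the precision. Groups came from the sample titles. A single limma model (version 3.58.1, R 4.3.3) held the 4 groups, with Benjamini-Hochberg adjustment over all tested probes. A probe was called at an adjusted p under 0.05 and at least 1.2-fold. Whether the effect changed between the time points was read from an interaction contrast, called at an adjusted p under 0.05. The model was tested on simulated data.

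Symbols came from RefSeq accessions, of which 4674 of 5469 matched a table of the GRCr8 assembly. The text names every member, from each list the genes with the highest and lowest 3 month difference (a pair at each end in lists of over 6 tested genes), and for each member the 2 named genes most correlated with it. The members and lists were chosen with earlier results of these data known.

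Alternatives were other scalings (quantile normalization over all arrays or within time points, the deposited normalized values, the median of the tested probes, the 5th percentile subtracted), other filters (none, all 24 arrays) and a floor of 0.1. Further ones were separate models, the replicate number as a block, array weights, a variance trend, array brightness or spread as a covariate, no fold limit, the methods' test at p under 0.01 or after adjustment, and each array left out. Leaving out 3 month controls 2 and 6 together, the lowest and highest in Akr1a1, was chosen after seeing the data.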

Additional observations from a re-analysis of the deposited data

Results flagged for a closer look

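In the 1 month control group, Akr1a1 on array 6 (scaled intensity 60.2) stood apart from the other 5 arrays (41.3 to 47.0), with a gap to its nearest neighbour of 0.654 of the range of the group on the log2 scale. Chance sets 1 array apart in this way in about 1 of every 20 groups. The effect of diabetes on Hagh differed between the time points, from -0.38 at 1 month to 0.39 at 3 months, a difference of 0.76 on the log2 scale.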

How the results depend on the processing

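Of 489 single values of the 4 genes under alternatives, 430 kept their direction and their side of the threshold, 26 were no longer called, 18 became called and 15 changed sign. The count of 2 members called at 3 months, Akr1a1 and Hagh, became 1 after quantile normalization over all arrays, where Sord was called and neither of those 2 was, and 0 with quantile normalization within time points, arrays scaled to the median of the tested probes, array brightness or array spread as a covariate, and the methods' test with or without adjustment. The count was 3 with the 5th percentile subtracted, where Sord, Ager and Akr1a1 were called and Hagh was not. It was also 3, with Ager added, with array weights and with a level above the filter limit required on all 24 arrays. Separate models of the time points gave 2, Akr1a1 and Ager. With single arrays left out the count ran from 1 to 4. It was 4 without 3 month control 6, and 1 without 3 month control 1, 2 or 3 or 3 month STZ 1, 2, 3 or 5. At 1 month the count was 0, and 1 (Hagh) by the methods' test at p under 0.01, and it was 0 with any array left out. The 1 member with an interaction became 0 under both quantile normalizations, with arrays scaled to the median of the tested probes, with the 5th percentile subtracted and with array spread as a covariate, and 2 with array weights or without 3 month controls 2 and 6. It ran from 0 to 3 with single arrays left out, at 0 without 3 month control 3, STZ 5 or STZ 6 and at 3 without control 6.

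Signs changed at 3 months for Hagh (-0.14 under both quantile normalizations, -0.018 with spread as a covariate), Ager (-0.046 with spread) and Akr1a1 (-0.075 and -0.077 under the quantile normalizations). At 1 month they changed for Akr1a1 (-0.065 and -0.057 under the quantile normalizations and -0.095 with brightness) and for Sord, which was 0.030 without control 2, 0.028 without control 5, 0.078 without STZ 1 and 0.018 without STZ 5. The interaction of Akr1a1 was -0.0098 and -0.021 under the quantile normalizations. The cause was not tested. Over all probes the 11911 calls at 3 months became 6969 and 5579 under the quantile normalizations, 5560 with the tested median, 4058 with brightness, 0 with spread (limma, as throughout) and 3722 or 1921 by the methods' test. The 3414 interactions became 860 with quantile normalization within time points, 328 with the tested median, 1228 with brightness, 0 with spread, 10325 with array weights and 6801 without controls 2 and 6, and 759 to 9230 with single arrays left out.

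Same-numbered control and STZ arrays correlated between -0.24 and 0.25 in their deviations from the group means, with 5 of 12 over 0.1, so the numbers were not taken to pair the samples. With the replicate number as a block, 2 members were called at 3 months, 0 at 1 month and 1 for the interaction, as without it, and 11589 probes at 3 months. Averaging several probes of a gene was not run because each member has 1 probe. Requiring a level above the filter limit on all 24 arrays left out Sord.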
